A study of Homo sapiens with 6 samples.

Results

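The genes described here encode the proteasome, its activators and its assembly factors in HepG2 cells, a human line grown from a liver carcinoma. They were taken from the gene count table by name: protein-coding entries whose symbol begins with PSMA to PSMG followed by a digit, together with POMP. This gave 49 of the 34036 genes of the table. Of the 49, 48 are proteasome genes and 1, PSMC3IP, encodes a meiotic recombination factor that shares only the first letters of its symbol. A further 27 entries with such symbols are pseudogenes or noncoding transcripts and were not taken, 19 of them with at least 1 count.

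RNA was collected 48 h after transfection with Lipofectamine RNAiMAX of either a non-targeting siRNA (siControl) or a siGENOME pool against DGUOK (siDGUOK), the mitochondrial kinase that salvages purine deoxynucleosides. Each condition had 3 cultures of the unmodified line, described by the submitters as independent biological replicates, and the molecule is labelled as poly(A) RNA. Titles and library names separate the conditions, but siControl stands in the treatment field of all 6 samples. Total counts on genes were 19065684, 18915508 and 10527216 for siControl replicates 1, 2 and 3, and 18613138, 15978314 and 21334876 for siDGUOK replicates 1, 2 and 3. Values given for 3 libraries of a condition follow that order. Levels are in CPM, counts per 1000000 of the library size after TMM scaling, and differences are log2 fold changes of siDGUOK over siControl from the quasi-likelihood test of edgeR, with p-values adjusted over all genes tested.

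The proteasome degrades proteins marked with ubiquitin. Its core particle (20S) is a barrel made of outer rings of alpha subunits, which gate the entry, and inner rings of beta subunits, of which PSMB5, PSMB6 and PSMB7 carry the constitutive proteolytic sites. The regulatory particle (19S) caps the barrel, with a base of ATPases that unfold and translocate substrates and a lid that removes ubiquitin. Interferons induce PSMB8, PSMB9 and PSMB10, which take the places of PSMB5, PSMB6 and PSMB7 in newly built barrels (the immunoproteasome) and change which peptides reach the class I antigen processing route. In liver cells, as in others, the transcription factor NRF1 (gene NFE2L1) raises proteasome transcripts together when proteolysis falls short.

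DGUOK (ENSG00000114956.19), the silenced gene, checks the labels. Its level was 54.4, 53.1 and 48.2 CPM in siControl and 9.08, 10.5 and 6.72 CPM in siDGUOK libraries, a difference of −2.57 on the log2 scale (SE 0.19, adjusted p = 1.64e-08 by edgeR). Each siDGUOK library lay below each siControl library, as titles and library names have it.

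Some features of the libraries stand beside all that follows. The library of siDGUOK replicate 1 had counts for 21057 genes, against 16205 to 17583 in the others. Of the 8 hepatocyte markers examined, all were tested and 7 fell at an adjusted p under 0.05 by edgeR, against 9.35% of all genes tested. The summed level of the 8 was 40460, 34893 and 34605 CPM in siControl and 20219, 18024 and 16908 CPM in siDGUOK libraries. SERPINA1 was the marker that did not pass the test, at 7756, 8151 and 7403 CPM in siControl and 8493, 7429 and 7704 CPM in siDGUOK libraries. Leukocyte markers summed to 1612, 1702 and 1704 CPM in siControl and to 1901, 1758 and 1767 CPM in siDGUOK libraries, nearly all of it from LYZ. Of the 5, 0 passed the test with edgeR, 0 had an unadjusted p under 0.05 there, and 0 passed with DESeq2, against 19.7%, 30.6% and 19.1% of all genes tested. The other 4 (PTPRC, CD3E, CD68 and CD14) reached at most 7.94 CPM, for PTPRC in siDGUOK replicate 2, and CD68, CD14 and CD3E were each at 0 in 1 library. Endothelial and stromal markers summed to 13.8, 16.4 and 12.6 CPM in siControl and to 36.9, 93.8 and 25.2 CPM in siDGUOK libraries. Of these 6, COL1A1 rose and PDGFRB fell, where 10.3% of all genes rose and 9.35% fell. An unadjusted p under 0.05 with edgeR was found for 5 (30.6% of all genes). A positive log2 fold change was found for 5, and the median over the 6 was 3.75. VWF, CDH5, PECAM1 and COL1A2 were each at 0 in at least 1 siControl library, and in siDGUOK replicate 2, which stood highest, VWF reached 31.4 CPM and PECAM1 15.9 CPM. The part of these shifts in the proteasome results was not tested. All cultures were of the same cell line, and in bulk samples fewer cells with a marker cannot be told apart from less of its RNA per cell.

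Of the 49 genes, 48 passed the filter on low counts. PSMB11, the thymus-specific beta subunit, did not pass, with 0, 0 and 0 counts in siControl and 2, 0 and 27 counts in siDGUOK libraries. To be called, a gene needed an adjusted p under 0.05 and a log2 fold change beyond 0.5 in either direction. By that rule 3 of the 48 were called (6.25%), against 14.1% of all 14476 genes tested. PSMD2 and PSMC6 were higher, where the rule called 7.42% of all genes higher, and PSMD1 was lower, where it called 6.68% lower. At the adjusted p alone 10 of the 48 passed (20.8%), against 19.7% of all genes. Of these, 6 rose (PSMD2, PSMC6, PSMD14, PSMA6, PSMD12 and PSMA4) and 4 fell (PSMD1, PSME1, PSME4 and PSMB1), where the shares over all genes were 10.3% higher and 9.35% lower. The 3 siControl and 3 siDGUOK libraries did not overlap for 19 of the 48 (39.6%), 13 of them higher (27.1%) and 6 lower (12.5%), against 36% of all genes, with 18.7% higher and 17.3% lower. Without siDGUOK replicate 1, the library with the most genes detected, 2 members were called and 8 had an adjusted p under 0.05. That fit called 1882 of all 15243 genes it tested. The number of members called was 5 without siControl replicate 2, siControl replicate 3 or siDGUOK replicate 3. Those fits called 1935 of 15280, 1704 of 15312 and 1869 of 15232 genes, in that order. The median log2 fold change of the 48 was 0.06 (0.10 without siControl replicate 2), with quartiles at −0.12 and 0.23, beside a median of 0.02 and quartiles at −0.31 and 0.35 over all genes tested.

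**Figure D1:**
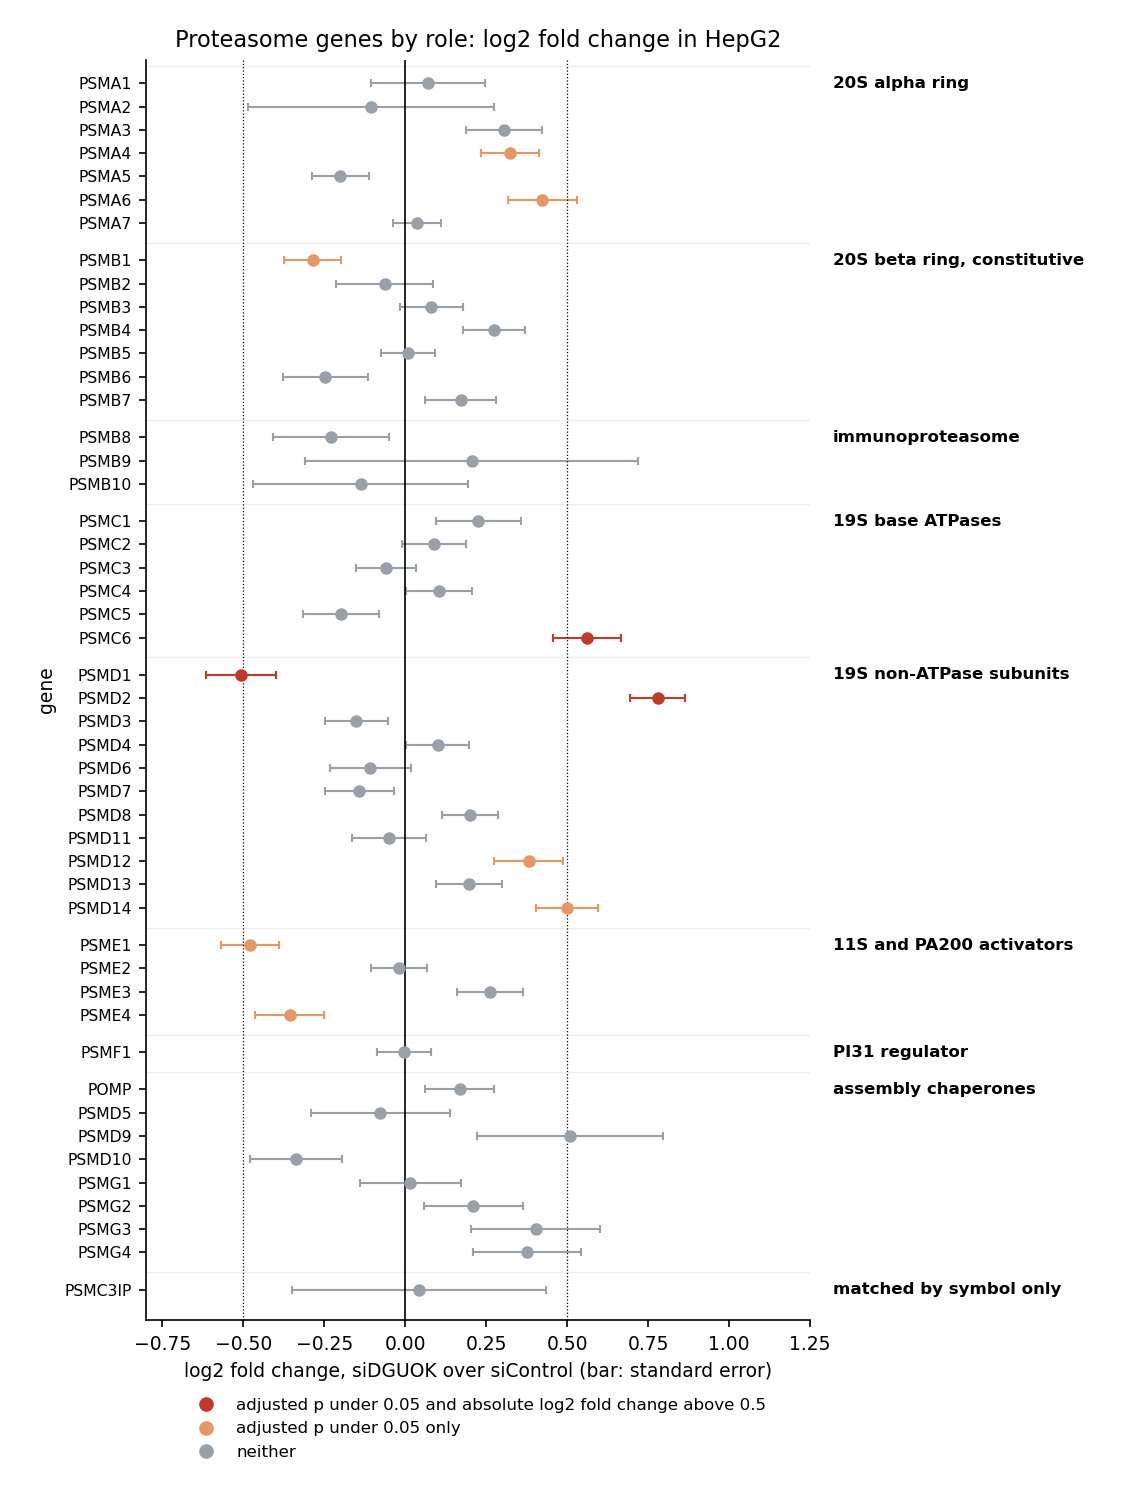
Log2 fold change (x axis) of the 48 genes tested, PSMC3IP included, grouped by role (y axis), with standard errors as bars and dotted lines at the fold change threshold of 0.5 in either direction. Red points are the 3 called genes, orange points the other 7 genes with an adjusted p under 0.05, and grey points the remaining 38, which fall on both sides of 0 in most groups.

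The genes were also summed by role. Over all 48 proteasome genes, PSMC3IP left out, the summed level was 4936 ± 183 CPM in siControl and 5166 ± 69.8 CPM in siDGUOK libraries (SD, n = 3). The 11 non-ATPase subunits of the 19S particle summed to 1299 ± 8.27 and 1469 ± 67.4 CPM, and the 6 ATPases to 509 ± 15.3 and 554 ± 4.38 CPM. The alpha ring stood at 871 ± 50.3 and 947 ± 6.70 CPM, and the constitutive beta ring at 1072 ± 76.3 and 1082 ± 33.6 CPM. The 8 assembly chaperones summed to 286 ± 12.5 and 307 ± 6.59 CPM. The activators summed to 671 ± 16.9 CPM in siControl and 586 ± 27.6 CPM in siDGUOK libraries, and the immunoproteasome to 60.5 ± 10.1 and 53.2 ± 12.9 CPM. The libraries of the conditions overlapped for all 48 genes together, for the constitutive beta ring and for the immunoproteasome. Within them, PSMD2 of the non-ATPase subunits went from a mean of 186 CPM in siControl to 319 CPM in siDGUOK libraries, and PSME1 of the activators from 271 to 195 CPM. Log2 fold changes were positive for 6 and negative for 5 of the non-ATPase subunits, and positive for 1 and negative for 3 of the activators. These sums were not tested.

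Promoter sequences were compared between genes that moved and genes that did not. RefSeq windows (GRCh38.p14) of 300 bases, from 250 before to 50 after the start of transcription, were matched for 43 of the 49 genes. PSMD4, PSMA7, PSMB1, PSMB6, PSMB7 and PSMG3 were not matched. Each window was searched on both strands for TGACNNNGC, the core of the antioxidant response element that NRF1 and NRF2 bind, for CCAAT, the box of NF-Y, for GAAANNGAA, the core of the interferon-stimulated response element, and for TTCNNNGAA, the gamma-activated sequence. TGACNNNGC was present in 13 of the 43 windows (30.2%), against 13.6% of 27305 promoter windows of all genes. CCAAT was present in 20 (46.5%, against 35.7%), GAAANNGAA in 8 (18.6%, against 8.29%) and TTCNNNGAA in 4 (9.3%, against 7.88%). Among the genes that rose, 1 of 6 windows held TGACNNNGC. All 3 windows found for the genes that fell held it, as did 9 of 33 windows of the genes that did not pass the test. In the same order CCAAT was present in 1 of 6, 0 of 3 and 18 of 33 windows, GAAANNGAA in 1, 1 and 6, and TTCNNNGAA in 0, 0 and 4. These shares were not tested. A match describes letters and not a bound site.

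The 200 bases before the RefSeq start are shown for PSMD2, which changed most, for 4 other genes that passed the test and hold TGACNNNGC or CCAAT there, and for PSME2 and PSMB10, which interferon induces and which hold GAAANNGAA there. These stretches were chosen after the matches and the expression values had been seen. Matches to the 4 motifs are in capitals and all other bases in lower case, each sequence on the strand of its gene. PSMD2 lies at chr3:184299041-184299240 on the plus strand, PSMD12 at chr17:67366578-67366777 on the minus strand, PSMD14 at chr2:161308225-161308424 on the plus strand and PSME1 at chr14:24135994-24136193 on the plus strand. PSME4 lies at chr2:53970994-53971193, PSME2 at chr14:24146611-24146810 and PSMB10 at chr16:67936851-67937050, all on the minus strand. For PSMD14 and PSME4 this start is also that of Gencode 44. For PSMD2, PSMD12, PSME1 and PSMB10 the gene begins earlier in Gencode 44, so that the stretch lies partly inside it, and for PSME2 the whole stretch does.
PSMD2: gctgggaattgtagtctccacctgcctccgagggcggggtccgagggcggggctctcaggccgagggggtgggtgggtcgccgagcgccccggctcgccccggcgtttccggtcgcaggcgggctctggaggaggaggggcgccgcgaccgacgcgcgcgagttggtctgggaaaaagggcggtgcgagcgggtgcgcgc
PSMD12: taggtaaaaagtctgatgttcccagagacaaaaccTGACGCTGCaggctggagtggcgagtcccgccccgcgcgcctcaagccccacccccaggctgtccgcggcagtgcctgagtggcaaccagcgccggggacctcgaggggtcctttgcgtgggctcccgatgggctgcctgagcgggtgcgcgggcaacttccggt
PSMD14: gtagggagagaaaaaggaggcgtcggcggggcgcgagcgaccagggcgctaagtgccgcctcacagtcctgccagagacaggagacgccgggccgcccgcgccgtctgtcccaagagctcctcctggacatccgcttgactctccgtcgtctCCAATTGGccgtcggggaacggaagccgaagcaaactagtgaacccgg
PSME1: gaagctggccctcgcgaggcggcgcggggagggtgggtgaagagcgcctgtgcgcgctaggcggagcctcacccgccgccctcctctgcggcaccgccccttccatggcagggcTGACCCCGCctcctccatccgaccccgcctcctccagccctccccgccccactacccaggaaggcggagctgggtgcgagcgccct
PSME4: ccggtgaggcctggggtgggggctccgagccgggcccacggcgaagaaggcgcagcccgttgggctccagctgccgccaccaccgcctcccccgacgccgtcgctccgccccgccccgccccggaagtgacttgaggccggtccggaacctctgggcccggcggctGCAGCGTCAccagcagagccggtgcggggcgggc
PSME2: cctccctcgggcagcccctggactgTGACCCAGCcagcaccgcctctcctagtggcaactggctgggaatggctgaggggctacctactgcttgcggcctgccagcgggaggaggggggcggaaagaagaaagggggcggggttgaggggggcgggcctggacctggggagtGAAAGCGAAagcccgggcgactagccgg
PSMB10: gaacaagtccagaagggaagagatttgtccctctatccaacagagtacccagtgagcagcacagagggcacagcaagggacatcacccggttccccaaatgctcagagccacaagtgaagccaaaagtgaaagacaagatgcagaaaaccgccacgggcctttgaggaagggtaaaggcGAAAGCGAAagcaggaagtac
The stretch of PSMD2 holds none of the motifs. Those of PSMD12 and PSME1 each hold TGACNNNGC on the strand of the gene, and that of PSME4 holds it on the opposite strand. In PSMD14 a CCAAT box on each strand overlaps the other. PSME2 holds both TGACNNNGC and, 28 bases before the start, the interferon element core, and PSMB10 holds the same letters of that core 21 bases before its start. The match of PSMD1 to TGACNNNGC begins 39 bases past the start, and a match of PSME1 to GAAANNGAA begins 6 bases past its start, both outside the stretches of 200 bases.

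The 19S particle held the 3 called genes, 3 of its 17 (17.6%), where the rule called 14.1% of all genes tested. PSMD2 (ENSG00000175166.16; chromosome 3 from 184299198 to 184309050, plus strand) encodes Rpn1, a large scaffold of the base that docks ubiquitin receptors. It measured 193, 179 and 185 CPM in siControl and 293, 313 and 352 CPM in siDGUOK libraries. The groups were far apart, with a log2 fold change of 0.78 (SE 0.09, adjusted p = 2.24e-06). PSMD2 was called under all 14 alternative settings. PSMD1 (ENSG00000173692.12; chromosome 2 from 231056845 to 231173116, plus strand) encodes Rpn2, the other large scaffold of the base. It moved in the opposite direction, from 138, 119 and 117 CPM in siControl to 79.4, 97.1 and 87.1 CPM in siDGUOK libraries, with no overlap. The difference was −0.51 on the log2 scale (SE 0.11, adjusted p = 0.0021).

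PSMC6 (ENSG00000100519.11; chromosome 14 from 52707178 to 52728590, plus strand) is 1 of the 6 ATPases of the base. Its level was 76.1, 95.5 and 87.4 CPM in siControl and 132, 121 and 129 CPM in siDGUOK libraries, so that the lowest siDGUOK library lay above the highest siControl library. The difference was 0.56 on the log2 scale (SE 0.10, adjusted p = 6.81e-04). None of the other 5 ATPases passed the test. PSMC1, PSMC2 and PSMC4 had values of 0.23, 0.09 and 0.10, and PSMC3 and PSMC5 of −0.06 and −0.20 on the log2 scale. These sizes depended on single libraries: PSMC1 had 0.14 without siDGUOK replicate 2, PSMC2 0.05 without siDGUOK replicate 1, PSMC4 0.05 without siDGUOK replicate 3 and PSMC5 −0.11 without siControl replicate 1, and PSMC3 ran from −0.11 to −0.04. The fold change of PSMC6 fell under the threshold of 0.5 without siControl replicate 1, at 0.48. That of PSMD1 did so without siControl replicate 1, at −0.42, and without siDGUOK replicate 1, at −0.46. The adjusted p stayed under 0.05 for both genes in each fit that left out 1 library.

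Among the lid subunits, PSMD14 and PSMD12 rose. PSMD14 is the deubiquitinase that cuts ubiquitin chains off substrates before they enter the core. It measured 86.4, 94.9 and 100.9 CPM in siControl and 134, 134 and 130.4 CPM in siDGUOK libraries, with siDGUOK libraries tightly grouped above the others. The log2 fold change of 0.50 (0.498 to a further digit, SE 0.10, adjusted p = 9.06e-04) stopped just short of the threshold for a call. It passed without siControl replicate 2, siControl replicate 3 or siDGUOK replicate 3, at 0.51, 0.55 and 0.50 in that order, and with no count filter. PSMD12, a structural subunit of the lid, went from 71.3, 73.6 and 84.4 CPM to 104.7, 97.2 and 96.3 CPM. All siDGUOK values lay above all siControl values, and the log2 fold change was 0.38 (SE 0.11, adjusted p = 0.0156). The adjusted p rose to 0.0577 without siControl replicate 1 and to 0.0916 without siDGUOK replicate 1, the highest of 14 alternatives, which went down to 0.00856. The other 7 non-ATPase subunits did not pass. PSMD4, PSMD8 and PSMD13 had log2 fold changes of 0.10 to 0.20, and PSMD3, PSMD6, PSMD7 and PSMD11 of −0.15 to −0.05. Without 1 library PSMD4 ran from 0.03 to 0.19, PSMD3 from −0.23 to −0.05, PSMD6 from −0.17 to −0.02, PSMD7 from −0.24 to −0.05 and PSMD11 from −0.12 to 0.004, and PSMD13 had 0.12 without siDGUOK replicate 2. Over the 17 genes of the 19S particle, 4 rose, 1 fell and 12 did not pass, where 10.3% of all genes rose and 9.35% fell.

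**Figure D2:**
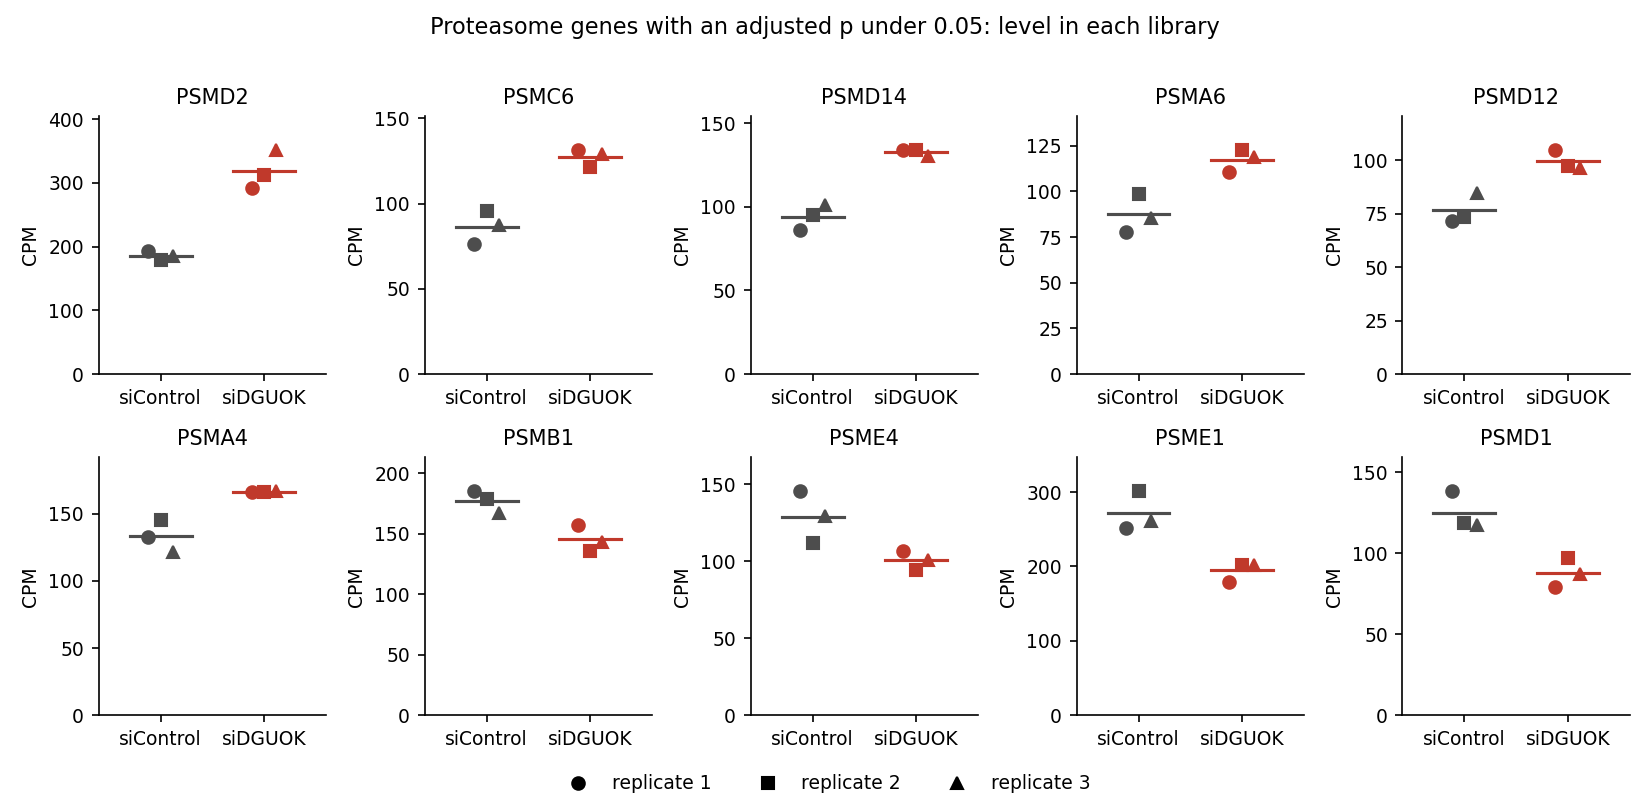
Level in CPM (y axis, from 0) of the 10 proteasome genes with an adjusted p under 0.05, with 1 point for each of the 3 libraries of a condition (x axis) and a line at the mean. In each panel the 3 siDGUOK points lie entirely above or entirely below the 3 siControl points, with the widest gap in PSMD2.

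In the alpha ring, 2 of 7 subunits rose and none fell, against 10.3% and 9.35% of all genes. PSMA6 was at 78.0, 98.6 and 85.6 CPM in siControl and at 110.5, 123 and 119 CPM in siDGUOK libraries, 0.42 higher on the log2 scale (SE 0.11, adjusted p = 0.00805). The groups did not overlap, and without siControl replicate 2 the value of 0.52 passed the threshold for a call. PSMA4 was at 133, 145 and 121 CPM in siControl and at 167, 167 and 167 CPM in siDGUOK libraries. The siDGUOK values of PSMA4 hardly varied, and all lay above the siControl values (log2 fold change 0.32, SE 0.09, adjusted p = 0.0154). The test was no longer passed without siControl replicate 3 (adjusted p = 0.108) and without siDGUOK replicate 1 (0.0591), while its lowest value over the alternatives was 0.00872. The other 5 ranged from −0.20 for PSMA5 to 0.30 for PSMA3. PSMA5 did not overlap between the groups, with 149 ± 3.18 CPM in siControl and 129.8 ± 5.89 CPM in siDGUOK libraries (SD, n = 3), but its adjusted p was 0.123.

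In the constitutive beta ring, 1 of 7 subunits fell and none rose, against 9.35% and 10.3% of all genes. PSMB1 fell and the other 6 subunits did not pass. Of these, PSMB2 and PSMB3 had −0.06 and 0.08 on the log2 scale, but without 1 library PSMB2 ran from −0.17 to 0.17 and PSMB3 from 0.02 to 0.16. PSMB1, a noncatalytic subunit, measured 185, 179 and 167 CPM in siControl and 157, 136 and 143 CPM in siDGUOK libraries. These groups were separate but close, at a log2 fold change of −0.29 (SE 0.09, adjusted p = 0.0287). PSMB1 failed the test in 5 of the 6 fits without 1 library, the most of the 10 genes. Its adjusted p was 0.112 without siControl replicate 1, 0.0693 without siControl replicate 2, 0.0546 without siControl replicate 3, 0.129 without siDGUOK replicate 2 and 0.0729 without siDGUOK replicate 3, against 0.0154 at the lowest. PSMB4, which is also noncatalytic, stood at 151 ± 19.7 CPM in siControl and 183 ± 3.69 CPM in siDGUOK libraries (SD, n = 3) and missed the threshold with an adjusted p of 0.0531. It passed with no count filter and without siControl replicate 2, as PSMA3 of the alpha ring did, which also passed without siDGUOK replicate 2.

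The catalytic subunits were read in both forms. PSMB5, the chymotrypsin-like site, was at 378, 383 and 331 CPM in siControl and 394, 336 and 369 CPM in siDGUOK libraries. PSMB6, the caspase-like site, was at 65.5, 71.8 and 77.3 CPM and 61.3, 69.5 and 50.1 CPM, and PSMB7, the trypsin-like site, at 119.6, 118 and 98.5 CPM and 119, 144 and 116 CPM. The groups overlapped for all 3 genes. The log2 fold changes were 0.01 for PSMB5, −0.25 for PSMB6 and 0.17 for PSMB7, with adjusted p-values of 0.962, 0.223 and 0.325. The value for PSMB5 was so near 0 that it changed sign when mitochondrially encoded genes were left out of the library sizes, at −4.14e-04. PSMB6 had −0.14 without siDGUOK replicate 3, and PSMB7 had 0.09 without siControl replicate 3 and 0.07 without siDGUOK replicate 2.

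The immunoproteasome subunits, the interferon-inducible forms, were detected in each library at lower counts. PSMB8 (ENSG00000204264.8; chromosome 6 from 32840717 to 32844679, minus strand), which replaces PSMB5, was at 43.2, 59.8 and 44.8 CPM in siControl and 32.2, 53.6 and 40.5 CPM in siDGUOK libraries. PSMB9 (ENSG00000240065.7; chromosome 6 from 32844136 to 32859851, plus strand), which replaces PSMB6, was at 3.04, 2.29 and 5.91 CPM and 2.65, 5.97 and 4.23 CPM. PSMB10 (ENSG00000205220.11; chromosome 16 from 67934506 to 67936864, minus strand), which replaces PSMB7, was at 6.04, 9.64 and 6.77 CPM and 5.89, 6.89 and 7.64 CPM. The groups overlapped for each of the 3, and siDGUOK replicate 2 was the highest siDGUOK library for PSMB8 and PSMB9.

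Of the 3 immunoproteasome genes, 0 passed the test in edgeR, 0 had an unadjusted p under 0.05 there, and 0 passed in DESeq2, where the shares over all genes were 19.7%, 30.6% and 19.1%. PSMB8 had a log2 fold change of −0.23, with an approximate 95% interval from −0.60 to 0.15 and an adjusted p of 0.437. For PSMB10 the interval ran from −0.84 to 0.56 around −0.14, and for PSMB9 from −0.88 to 1.29 around 0.20. PSMB9 had 43 to 97 counts a library. The value for PSMB8 was −0.06 without siControl replicate 2, −0.09 without siDGUOK replicate 1 and −0.44 without siDGUOK replicate 2. The sign for PSMB9 turned to −0.05 without siControl replicate 2 and to −0.11 without siDGUOK replicate 2, and the sign for PSMB10 turned to 0.09 without siControl replicate 2. PSMB9 had 0.08, 0.68 and 0.44 without siControl replicate 1, siControl replicate 3 and siDGUOK replicate 1, and PSMB10 had −0.27, −0.06 and −0.24 without siControl replicate 1, siDGUOK replicate 1 and siDGUOK replicate 3.

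The balance between the forms was read as the ratio of CPM values within a library. PSMB8 over PSMB5 was 0.114, 0.156 and 0.136 in siControl and 0.0818, 0.159 and 0.11 in siDGUOK libraries. PSMB9 over PSMB6 was 0.0465, 0.0319 and 0.0764 in siControl and 0.0432, 0.0859 and 0.0845 in siDGUOK libraries, and PSMB10 over PSMB7 was 0.0504, 0.0816 and 0.0687 and then 0.0496, 0.0478 and 0.0657. The groups overlapped for all 3 ratios. The mean log2 ratio differed by −0.25 for PSMB8 over PSMB5, by 0.49 for PSMB9 over PSMB6 and by −0.29 for PSMB10 over PSMB7. Leaving out 1 library moved each of them widely. PSMB8 over PSMB5 had −0.14 without siControl replicate 2, −0.02 without siDGUOK replicate 1 and −0.50 without siDGUOK replicate 2. PSMB9 over PSMB6 had 0.19 and 0.82 without siControl replicates 2 and 3, and 0.82 and 0.32 without siDGUOK replicates 1 and 2. PSMB10 over PSMB7 had −0.48 and −0.13 without siControl replicates 1 and 2, and −0.43 without siDGUOK replicate 3. Two-sided exact permutation tests over the 6 libraries gave p = 0.5, 0.3 and 0.2, or 0.5, 0.45 and 0.45 when adjusted over the 3 pairs. With 3 libraries against 3, no p under 0.1 is possible.

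**Figure D3:**
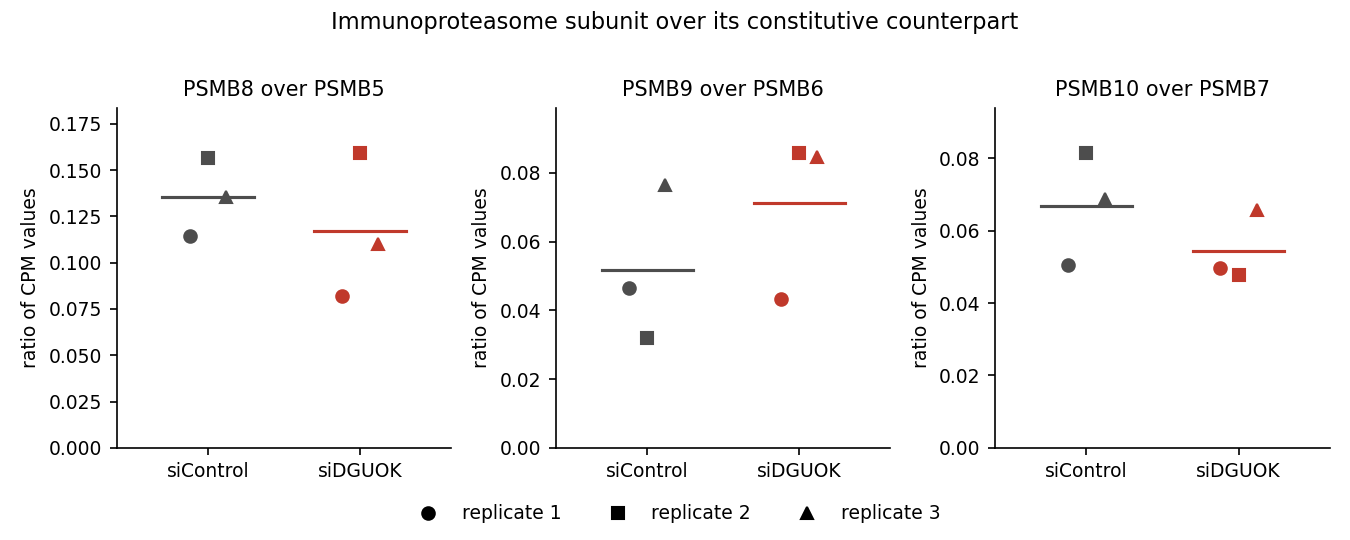
Ratio of the CPM of each immunoproteasome subunit to the CPM of the constitutive subunit it replaces (y axis, from 0), with 1 point for each library of a condition (x axis) and a line at the mean ratio. The siControl and siDGUOK points overlap in all 3 panels.

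The activators open the gate of the core without ATP. PSME1 and PSME2 encode the alpha and beta chains of the 11S cap that interferon-gamma induces, and their products form rings together. PSME1 (ENSG00000092010.14; chromosome 14 from 24136163 to 24138967, plus strand) was at 251, 301 and 261 CPM in siControl and 179.7, 202 and 202 CPM in siDGUOK libraries. All siDGUOK values were below all siControl values, at a log2 fold change of −0.48 (SE 0.09, adjusted p = 6.83e-04). PSME2 was at 162 ± 11.1 and 159.6 ± 5.51 CPM (SD, n = 3), a difference of −0.02 on the log2 scale with an adjusted p of 0.921 from edgeR, and 0.04 without siControl replicate 1. The difference between the changes of PSME1 and PSME2 was not tested. PSME1 was called in 4 of the 6 fits without 1 library, at −0.53 without siControl replicate 1, −0.50 without siControl replicate 3, −0.50 without siDGUOK replicate 2 and −0.52 without siDGUOK replicate 3.

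PSME4 encodes PA200, a large nuclear activator. It fell from 145, 112 and 129 CPM in siControl to 106.6, 94.1 and 100.9 CPM in siDGUOK libraries, and the lowest siControl library lay just above the highest siDGUOK library. It differed by −0.36 on the log2 scale (SE 0.11, adjusted p = 0.0238), and the adjusted p was 0.135 without siControl replicate 1, 0.0837 without siControl replicate 3 and 0.0917 without siDGUOK replicate 2, with 0.00602 the lowest over the alternatives. PSME3, the nuclear homolog of the 11S chains, stood at 109 ± 0.874 CPM in siControl and 131 ± 16.2 CPM in siDGUOK libraries (SD, n = 3), where siDGUOK replicate 3 was the highest at 149.6 CPM, and had an adjusted p of 0.0808. PSMF1, which encodes the PI31 regulator, had a log2 fold change between −0.18 and 0.17 by its approximate 95% interval, and 167 CPM as the mean of each condition.

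Of the 8 assembly chaperones, 0 passed the test in edgeR and 0 in DESeq2, against 19.7% and 19.1% of all genes, and 2 had an unadjusted p under 0.05 in edgeR, against 30.6% of all genes. They comprise POMP and PSMG1 to PSMG4, which build the core, and PSMD5, PSMD9 and PSMD10, which build the base. Log2 fold changes ran from −0.34 for PSMD10 to 0.51 for PSMD9. PSMD9 had an adjusted p of 0.251 and ran from 0.22 (without siDGUOK replicate 3) to 0.72 on the log2 scale over the alternatives. It went from 8.39, 12.6 and 9.25 CPM in siControl to 9.51, 14.2 and 19.3 CPM in siDGUOK libraries, where siDGUOK replicate 3 was the highest and the groups overlapped. PSMG3 and PSMG4 did not overlap between the groups and were higher in siDGUOK libraries, and PSMD10 was lower, at adjusted p-values of 0.18, 0.133 and 0.11. With these, 3 of the 8 did not overlap (37.5%), against 36% of all genes. PSMC3IP, which is not a proteasome gene, had a log2 fold change of 0.04, which ran from −0.31 to 0.41 over the alternatives.

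Levels among the genes were compared per kilobase of the Ensembl canonical transcript in Gencode 44, a later release than the one used for counting. PSMA7 was the most abundant per length. Its CPM values were 378, 403 and 363 in siControl and 395, 398 and 381 in siDGUOK libraries, which gave a mean of 396 CPM per kilobase in siControl. PSMB5 followed with 348, then PSME1 with 281, PSME2 with 204 and PSMB1 with 199 CPM per kilobase. On this scale the lowest siControl library of PSMA7 (378) lay above the highest of PSMB5 (366), while PSME2 and PSMB1 overlapped, as did PSMB9, PSMD9 and PSMA2. Among the genes tested, PSMB9 was the least abundant, at 3.69 CPM per kilobase, next to PSMD9 at 3.70 and PSMA2 at 3.97. Within the immunoproteasome PSMB8 stood at 43.8 CPM per kilobase, 11.9 times PSMB9. Medians were 165 CPM per kilobase in the constitutive beta ring, 119 over the activators, 63.8 over the non-ATPase subunits of the 19S particle, 43.6 over its ATPases, 39.1 in the alpha ring and 25.0 over the chaperones. Lengths had first been taken from the merged exons of all transcripts of a gene, and the canonical transcript was chosen after those values had been seen. On merged exons PSMB5 came first with 235 CPM per kilobase and PSMA7 second with 218, PSME2 stood at rank 12 in place of 4, and PSMA2 was the least abundant of the genes tested with 0.679, below PSMB9 with 1.12. Medians on merged exons were 71.2 in the constitutive beta ring, 33.2 over the activators, 23.7 over the non-ATPase subunits, 19.04 in the alpha ring, 15.5 over the ATPases and 7.59 over the chaperones. The order of PSMA7 and PSMB5, and that of the ATPases and the alpha ring, thus changed with the length used.

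The products of the alpha ring enter the core in equal numbers, yet PSMA7 and PSMA2 differed 99.9-fold in transcript level per length. On merged exons the same 2 genes had 217.7 and 0.679 CPM per kilobase, 321-fold apart. Whether counting contributes to the range was not tested. The counting defaults drop reads that overlap exons of more than 1 gene, and 13 of the 49 canonical transcripts share exon bases with another gene in Gencode 44 (24 when all exons of a member are merged). For PSMA2 the share was 100% of the transcript, all with 1 protein-coding gene on the same strand (ENSG00000256646), and its counts were 38 to 133 a library. That gene is absent from the count table, so that it is not known whether it took part in the counting. PSMA1 shared 67.0% and PSMA6 81.4% with protein-coding genes on their strand that are in the table with 2 counts each over all libraries, while PSMC1 shared 83.2% with the antisense gene NRDE2, PSMB10 56.1% with a gene on its strand and PSMD7 51.6% with an antisense transcript. PSMC3IP shared 57.2% with the antisense gene MLX. Levels of these 7 genes are therefore uncertain, and PSMA6 is the only 1 of them that passed the test between conditions. PSMB8 and PSMB9, neighbours that point away from each other, shared none of their canonical transcripts with other genes, but 17.3% and 5.21% of their merged exons.

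**Figure D4:**
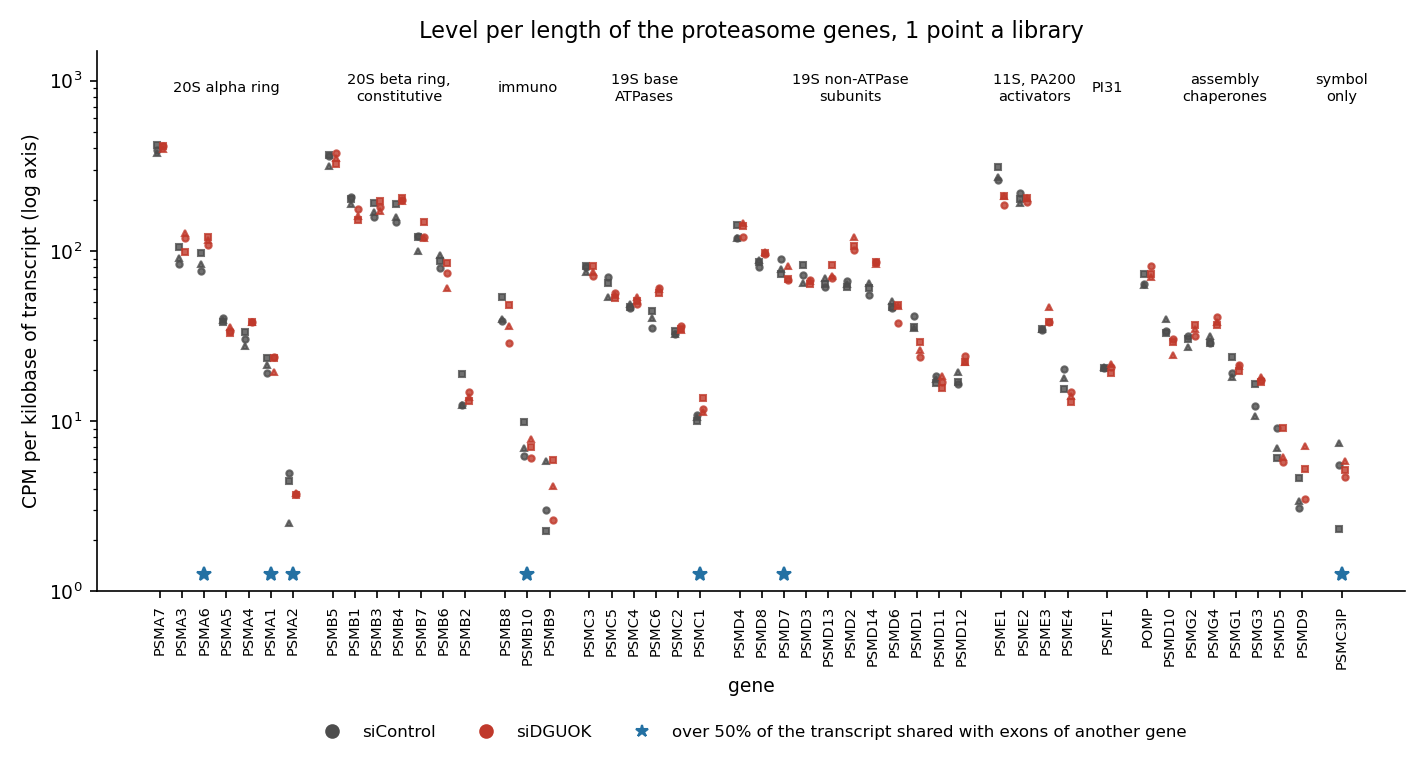
CPM per kilobase of canonical transcript (log y axis) for 48 genes with counts in siControl (x axis), grouped by role, with 1 point for each library, grey for siControl and red for siDGUOK. Stars mark the 7 transcripts that share over 50% of their bases with exons of another gene, among them PSMA2, the lowest of the alpha ring.

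Genes outside the naming rule are given in 5 related lists. Among 11 further partners of the 26S particle, 2 rose and 2 fell, where 10.3% of all genes rose and 9.35% fell. ADRM1, the ubiquitin receptor that PSMD1 holds on the base, went from 155, 165 and 159.9 CPM in siControl to 214, 215 and 191 CPM in siDGUOK libraries (log2 fold change 0.37, SE 0.08, adjusted p = 0.00401). ZFAND5, which stimulates the 26S particle, was called, from 111 ± 4.18 to 171 ± 6.24 CPM (SD, n = 3, log2 fold change 0.62, adjusted p = 4.33e-05). FBXO7, a PI31 partner, and KIAA0368, now named ECPAS, an adaptor of the complex, fell by 0.33 and 0.36 on the log2 scale (adjusted p = 0.0272 and 0.0179). FBXO7 did not pass without siControl replicate 1 (0.0592), siControl replicate 2 (0.0894), siDGUOK replicate 1 (0.0774) or siDGUOK replicate 2 (0.058), against 0.019 at the lowest. KIAA0368 did not pass without siControl replicate 3 (0.0551) or siDGUOK replicate 1 (0.0523), against 0.00918 at the lowest.

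On the NRF1 route, 2 of 10 genes rose and 1 fell, against the same 10.3% and 9.35%. NFE2L1, which encodes NRF1, fell from 530, 540 and 578 CPM in siControl to 488, 418 and 407 CPM in siDGUOK libraries, and its groups did not overlap (log2 fold change −0.33, SE 0.08, adjusted p = 0.00717). Without siControl replicate 3 the adjusted p was 0.0767, the highest of 14 alternatives, of which the lowest was 2.95e-04. MAFF, a small MAF partner, was called at 0.56 (adjusted p = 0.00739), but lay under the fold change threshold without siControl replicate 1, at 0.45, and without siDGUOK replicate 3, at 0.44. NFE2L3, a relative of NRF1, had 0.45 (adjusted p = 0.0346), and overlapped between the groups. It did not pass with DESeq2 (0.0501) or without siControl replicate 1 (0.144), siControl replicate 2 (0.0827), siDGUOK replicate 1 (0.165) or siDGUOK replicate 2 (0.142), against 0.00485 at the lowest, and was called without siControl replicate 3 and without siDGUOK replicate 3, at 0.57 and 0.58. DDI2, the protease that activates NRF1, stood at 32.4, 30.0 and 31.9 CPM in siControl and 23.6, 21.4 and 22.7 CPM in siDGUOK libraries, which did not overlap, and just missed the threshold with an adjusted p of 0.0501.

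Of 8 shuttles and VCP cofactors, 1 rose and 0 fell, where 10.3% of all genes rose and 9.35% fell. The gene that rose was SQSTM1, which carries ubiquitinated cargo to autophagy. It went from 506 ± 22.0 to 711 ± 15.5 CPM (SD, n = 3), 0.49 higher on the log2 scale (adjusted p = 4.96e-05 by edgeR). SQSTM1 was called at 0.52 without siControl replicate 3 and at 0.51 without siDGUOK replicate 2. Of 9 proteotoxic stress genes, 4 rose and 1 fell, against 10.3% and 9.35% of all genes. ATF3 and ZFAND2A were called, at 0.59 and 0.56, and the chaperone genes DNAJB1 and HSPH1 had 0.43 and 0.40, with adjusted p-values of 0.00343, 5.24e-04, 4.27e-04 and 0.00882. ATF3 had 0.49 without siDGUOK replicate 2, and HSPH1 an adjusted p of 0.0572 without siControl replicate 2, 0.0616 without siControl replicate 3 and 0.0507 without siDGUOK replicate 1, against 5.31e-04 at the lowest, and was called at 0.52 without siControl replicate 1. HMOX1, the heme oxygenase, fell from 65.9 ± 10.3 to 30.9 ± 9.04 CPM (SD, n = 3, log2 fold change −1.09, adjusted p = 2.36e-04).

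In class I antigen processing, which lies downstream of the proteasome, 6 of 14 genes fell, 5 of them called, and 0 rose, with a median log2 fold change of −0.55. Over all genes 9.35% fell, 6.68% were called lower and the median was 0.02. HLA-B was at 205, 219 and 222 CPM in siControl and 111, 149.6 and 96.3 CPM in siDGUOK libraries (log2 fold change −0.86, SE 0.12, adjusted p = 4.97e-05). The trimming peptidase gene ERAP1 had −0.83, and PDIA3, CALR and TAPBP, of the complex that loads peptides, had −0.71, −0.69 and −0.62. HLA-C fell by 0.35 on the log2 scale without being called (adjusted p = 0.00249). The peptide transporter genes TAP1 and TAP2 did not pass. HLA genes are close copies of each other, and reads that map to several places are not counted by default. The difference between this list and the proteasome genes was not tested, and the fall of the hepatocyte markers stands beside it.

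**Figure D5:**
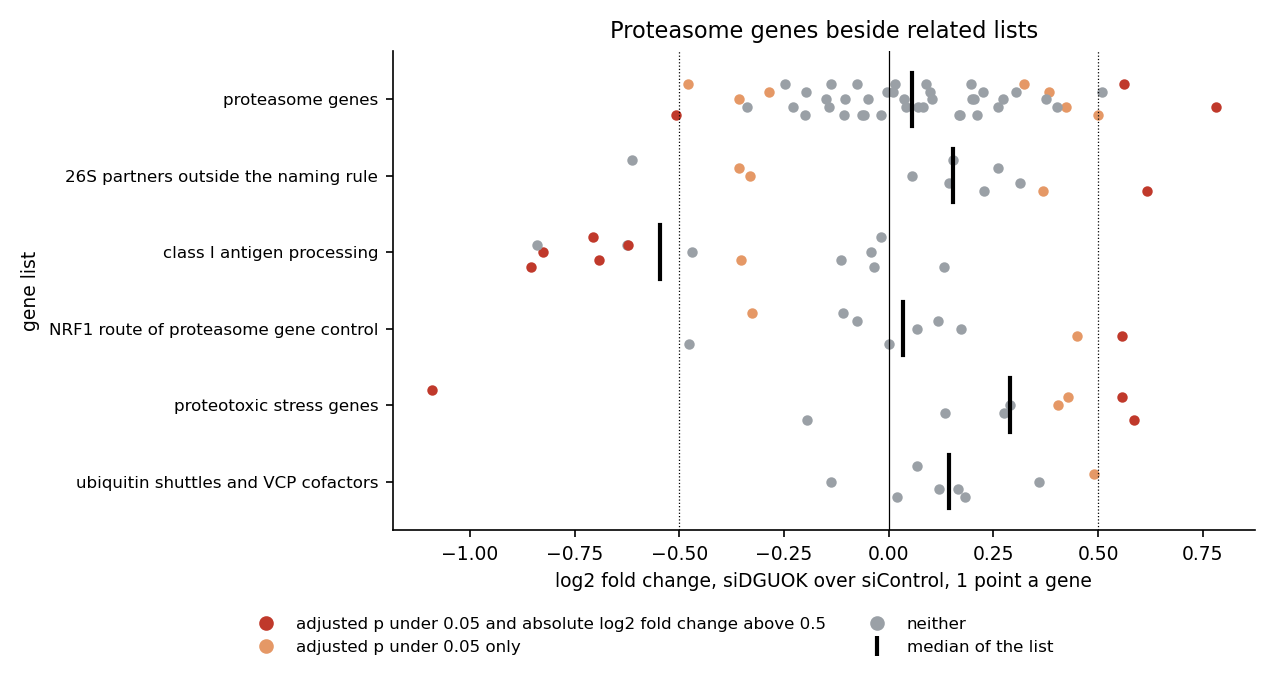
Log2 fold change (x axis), 1 point a gene, of the 48 genes tested by the naming rule, PSMC3IP included, and of the 5 related lists (y axis), with dotted lines at 0.5 in either direction and a black bar at the median of each list. The median of class I antigen processing lies at −0.55 and that of the 48 genes at 0.06.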

How the data were processed

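RNA-seq counts of 3 siControl and 3 siDGUOK cultures were analysed. The members and lists were chosen with earlier results of these data known. The authors removed tRNA, rRNA, adapter and spike-in reads, aligned to GRCh38 with STAR 2.6.1, removed low-complexity reads and obtained counts with featureCounts 1.6.5, whose defaults ignore strand and drop reads that map to several places or overlap several genes. Genes with close copies, overlapping genes and antisense genes are thus uncertain. The deposited values are whole counts without normalization. The molecule is labelled as poly(A) RNA, although the library protocol also leaves rRNA depletion open. Tool versions are those of the submitters' processing notes.

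Counts were tested in R 4.3.3 with edgeR 4.0.16 (filterByExpr minimum count 10, TMM, robust quasi-likelihood fit of condition, two-sided, Benjamini-Hochberg adjustment over 14476 genes). Library sizes were full totals. A fit with library sizes summed after the count filter was run first, and full totals were taken after the calls of both had been seen, to follow an earlier processing of the same table. They gave 2041 calls over all genes, against 2032. The SE was taken as the absolute fold change (log2) over the root of the F statistic, and the approximate 95% intervals use its degrees of freedom. Exact permutation tests covered the 3 catalytic ratios. Replicates of a condition differed beyond sampling noise, with a chi-square of 10.7 to 25.7 for each degree of freedom. Totals ran from 10527216 to 21334876 counts. The fit was tested on a single simulated data set, in which 13950 genes were tested. Of these, 98 were changed by 1 on the log2 scale and another 98 by 2, in either direction. It called 52 of the 98 (53.1%) at a log2 change of 1 and 77 of the 98 (78.6%) at 2, with 10 false calls in total.

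Named were all members by role, with values by library for members with an adjusted p under 0.05, for the catalytic subunits and for the most and least abundant member per length, and further the genes of the related lists with an adjusted p under 0.05, DGUOK and NFE2L1. A further list of related genes and a further marker gene were examined and are not reported. DDI2, TAP1, TAP2, PSMA3, PSMA5, PSMB4, PSMD9, PSME3 and single marker genes were named or given values after these had been seen. Positions and transcript lengths came from Gencode 44 (GRCh38), matched for all 49 members, and promoters from RefSeq. Alternatives were RLE and upper-quartile normalization, mitochondrially encoded genes left out, no count filter, DESeq2 1.42.0 without and with shrinkage, replicate number as a block, each library left out, the library sizes described above (added after seeing the data) and, for the ratios, log2 CPM with a prior count of 2. Figures were drawn with matplotlib 3.10.9.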

Additional observations from a re-analysis of the deposited data

How the results depend on the processing

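DGUOK stayed called under each alternative, between −2.72 and −2.41 on the log2 scale. Of the 10 proteasome genes with an adjusted p under 0.05, 6 passed in each of the 6 fits without 1 library (PSMD2, PSMC6, PSMD1, PSMD14, PSMA6 and PSME1). In these fits 2 to 5 members were called, 7 to 11 had an adjusted p under 0.05, and the median log2 fold change of the members ran from 0.04 to 0.10. Over all genes these fits called from 1704 of 15312 (without siControl replicate 3) to 1935 of 15280 (without siControl replicate 2). With all libraries 2041 of 14476 were called. The number of members called was 5 without siControl replicate 2, siControl replicate 3 or siDGUOK replicate 3, each time including the 3 called with all libraries. Of these 3, PSMD2 alone was still called without siControl replicate 1. With the replicate block, 4 members were called and 11 had an adjusted p under 0.05, with a median of 0.08, and the 3 earlier calls were kept. The members that passed in addition were PSMD14 for the call and PSMB4 for the adjusted p. Over all 14476 genes the block gave 2077 calls. The numbers do not pair the libraries, since the correlations of same-numbered libraries after removing group means were 0.024, 0.017 and −0.0022. Among siControl libraries, replicates 1 and 2 correlated best with the siDGUOK library of their own number, but replicate 3 with number 2. No count filter gave 4 called members and 12 at the adjusted p, and RLE, upper-quartile normalization, mitochondrially encoded genes left out and DESeq2 without or with shrinkage gave 3 and 10. Over all genes, no filter called 2172 of 24670, and DESeq2 called 2133 of 17477 without and 1944 of 14608 with shrinkage. Library sizes summed after the count filter, an alternative added after seeing the data, also gave 3 and 10, with a median of 0.05. The median of all genes was 0.13 with DESeq2 and 0.14 with no filter, both of which took in more genes with low counts.

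The sign turned under at least 1 alternative for 12 of the 48 genes tested (PSMA1, PSMA2, PSMB2, PSMB5, PSMB9, PSMB10, PSMC3IP, PSMD5, PSMD11, PSME2, PSMF1 and PSMG1), none of which passed the test. PSMA2 ran from −0.34 to 0.088, PSMB2 from −0.17 to 0.17, PSMD5 from −0.31 to 0.11 and PSMC3IP from −0.31 to 0.41. PSMB5 had −4.14e-04 with mitochondrially encoded genes left out and −2.11e-04 with library sizes summed after the filter. Without 1 library it ran from −0.063 (without siDGUOK replicate 1) to 0.069, with −0.053 without siControl replicate 3 and −0.0030 without siDGUOK replicate 3. PSMB10 ran from −0.27 to 0.091 (without siControl replicate 2). PSMB9 ran from −0.11 (without siDGUOK replicate 2) to 0.68, with −0.054 without siControl replicate 2. The cause was not tested. The 3 ratios of catalytic subunits kept their sign under each alternative, but their size depended on single libraries: the difference ran from −0.50 to −0.020 for PSMB8 over PSMB5, from 0.19 to 0.82 for PSMB9 over PSMB6 and from −0.48 to −0.13 for PSMB10 over PSMB7.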
